A study of Mus musculus with 4 samples.

Results

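C-type lectin receptors are proteins that use a calcium-dependent lectin fold, or a fold derived from it, to bind sugars, lipids or proteins on microbes, dying cells and neighbouring cells. On dendritic cells they take up antigen and pass signals inward: some, such as Dectin-1 and Dectin-2, activate the kinase Syk and the adaptor Card9, and others carry inhibitory motifs that recruit phosphatases. Several mark subsets of dendritic cells, Clec9a the cross-presenting class called cDC1 and Clec4a4 a part of the class called cDC2. The genes were taken by symbol from the gene count files. They are all rows whose symbol begins with Clec or Cd209 and continues with a number or letter, those ending in -ps left out, together with Ly75 and Cd207, and they number 42 of 55450 gene rows.

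The libraries came from CD11c+ cells of mesenteric lymph nodes of wild-type C57BL/6J mice. The integrin CD11c is carried by dendritic cells and by parts of other white blood cell types, and selection was by magnetic beads, which leaves some other node cells. Nodes were pooled, 2 per sample. A pool was split into 1 well with 10 µM of an agonist of Ffar2, a receptor for short-chain fatty acids, and 1 control well, for 6 h of culture. The control is labelled as untreated, while the protocol names water. The 2 agonist and 2 control libraries carry the numbers 2 and 3 in their titles, and wells with the same number are called pool 2 and pool 3 here. The agonist's chemical name and the age and sex of the mice were not given in the labels. Levels are given as CPM, the usual count per fixed number of reads in genes, with TMM scaling between libraries. The libraries held 49509736 and 59902172 reads in genes in the agonist wells and 43238375 and 52417584 in the control wells (pool 2, then pool 3). Xist, read from an inactive X chromosome, had 21194 and 17776 reads in the agonist and control wells of pool 2 and 0 in both wells of pool 3, while the Y-linked gene Ddx3y had 0 in pool 2 and 21461 and 18752 in pool 3, so the pools also differ in sex. Itgax, the CD11c gene, had 178 and 95.5 CPM in the agonist and 189 and 105 CPM in the control wells, and Flt3 and Zbtb46, genes of the dendritic cell lineage, were read in every library.

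Most lectin reads came from 3 genes. Ly75, Clec2i and Clec7a together took 81.0% and 83.7% of the summed lectin reads in the agonist wells and 81.6% and 83.7% in the control wells of pools 2 and 3. Ly75 encodes DEC-205, an endocytic receptor that carries antigen to processing compartments, Clec7a encodes Dectin-1, a receptor for fungal beta-glucan, and Clec2i encodes Clr-g, a ligand of the natural killer cell receptor NKR-P1F. The windows around the start sites of these 3 genes and of the subset lectins Cd207 and Clec9a are printed to show the promoters behind the values that follow. They are RefSeq sequences (GRCm38.p6), 250 bases before to 50 after the start, read 5′ to 3′ on the gene's strand. Capitals mark matches on either strand to the composite of PU.1 and IRF factors (GGAA followed after 2 bases by GAAA). They also mark TGANTCA, the site of AP-1, and TATAAA, which positions the polymerase at many promoters where it stands shortly before the start. Matches were marked at any place in the window. The TATAAA match lies after the start in Clec7a and far before it in Clec9a, and on the opposite strand in both.
Ly75 (chr2:60383224-60383523, minus strand): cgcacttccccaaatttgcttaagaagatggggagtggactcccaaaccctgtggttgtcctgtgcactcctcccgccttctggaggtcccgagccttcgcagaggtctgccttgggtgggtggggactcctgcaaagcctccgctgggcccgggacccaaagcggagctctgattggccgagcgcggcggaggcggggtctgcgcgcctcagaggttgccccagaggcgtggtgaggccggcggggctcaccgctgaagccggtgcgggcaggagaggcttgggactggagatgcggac
Clec2i (chr6:128887337-128887636, plus strand): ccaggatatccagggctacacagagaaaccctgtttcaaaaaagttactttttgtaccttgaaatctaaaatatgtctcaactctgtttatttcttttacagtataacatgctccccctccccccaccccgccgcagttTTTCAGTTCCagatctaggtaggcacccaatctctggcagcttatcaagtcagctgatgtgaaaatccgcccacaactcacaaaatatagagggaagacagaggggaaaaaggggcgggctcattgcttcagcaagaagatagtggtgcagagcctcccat
Clec7a (chr6:129472730-129473029, minus strand): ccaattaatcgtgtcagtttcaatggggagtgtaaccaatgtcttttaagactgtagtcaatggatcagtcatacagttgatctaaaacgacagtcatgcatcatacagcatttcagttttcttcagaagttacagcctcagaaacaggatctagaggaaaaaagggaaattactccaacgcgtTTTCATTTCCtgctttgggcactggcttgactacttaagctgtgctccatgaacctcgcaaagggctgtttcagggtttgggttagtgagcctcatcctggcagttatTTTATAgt
Cd207 (chr6:83677808-83678107, minus strand): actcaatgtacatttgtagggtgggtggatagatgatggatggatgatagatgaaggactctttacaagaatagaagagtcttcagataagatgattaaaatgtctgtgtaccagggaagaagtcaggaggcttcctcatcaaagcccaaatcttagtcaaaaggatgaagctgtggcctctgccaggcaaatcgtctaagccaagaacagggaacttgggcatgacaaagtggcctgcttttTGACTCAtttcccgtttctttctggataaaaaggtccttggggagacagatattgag
Clec9a (chr6:129408612-129408911, plus strand): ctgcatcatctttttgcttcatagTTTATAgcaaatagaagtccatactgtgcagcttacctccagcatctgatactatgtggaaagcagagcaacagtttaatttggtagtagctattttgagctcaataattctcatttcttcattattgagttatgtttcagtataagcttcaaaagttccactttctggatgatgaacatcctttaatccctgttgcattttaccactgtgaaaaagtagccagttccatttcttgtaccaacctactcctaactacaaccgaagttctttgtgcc

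Such windows were found for 34 of the 42 lectin genes. The composite stood in 6 of the 34 (17.6%), in Clec7a, Clec2i, Clec4a1, Cd209a, Cd209d and Cd209e, against 3.16% of the 27025 genes with a window. The match read GGAAATGAAA in Clec7a, GGAACTGAAA in Clec2i, GGAAAGGAAA in Clec4a1 and GGAAGAGAAA in Cd209a, Cd209d and Cd209e, which are paralogs, and in each it lay on the strand opposite to the gene. TGANTCA was in 9 of 34 (26.5%, against 8.97% of all genes) and TATAAA in 11 of 34 (32.4%, against 15.7%). Of the other motifs searched on both strands, GAAA repeated after 2 bases was in 8.82% of the lectin genes and 3.99% of all genes, GAGGAAG in 23.5% and 15.4%, its longer form GAGGAAGT in 0 lectin genes and 3.69% of all genes, TTGCGCAA in 2.94% and 0.207%, and CAGGTG in 2.94% and 22.6%. These are descriptions of letters in a window of 300 bases and not sites of binding.

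Of the 42 genes, 27 had a mean of at least 1 CPM over the 4 libraries and are the ones called expressed. Another 11 had reads at a mean under 1 CPM, and 4 had none in any library: Clec3a, Clec4f, Clec14a and the pseudogene Clec2j. In the annotation Clec2f is a transcribed pseudogene too, and Clec7a carries the label polymorphic pseudogene. Clec4f is known from Kupffer cells of the liver and Clec14a from endothelium. A count of 0 allows up to 3 reads, or 0.0577 and 0.0529 CPM in the agonist and 0.0689 and 0.0574 CPM in the control wells of pools 2 and 3. Per kilobase of exon, which allows levels of different genes to be set side by side, Ly75 had 127 and 231 CPM per kb in the agonist wells and 135 and 215 in the control wells of pools 2 and 3. Clec7a had 188 and 137 CPM per kb in the agonist and 174 and 119 in the control wells, and Clec2i had 145 and 141 against 157 and 157. The ranges of these 3 overlapped, so their order per length does not exceed the spread between libraries, and all 3 were above every other lectin gene in every library. Clec4n followed with a mean of 51.6 CPM per kb, then Cd209b with 30.2 and Clec4a4 with 29.1, whose ranges overlapped.

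**Figure D1:**
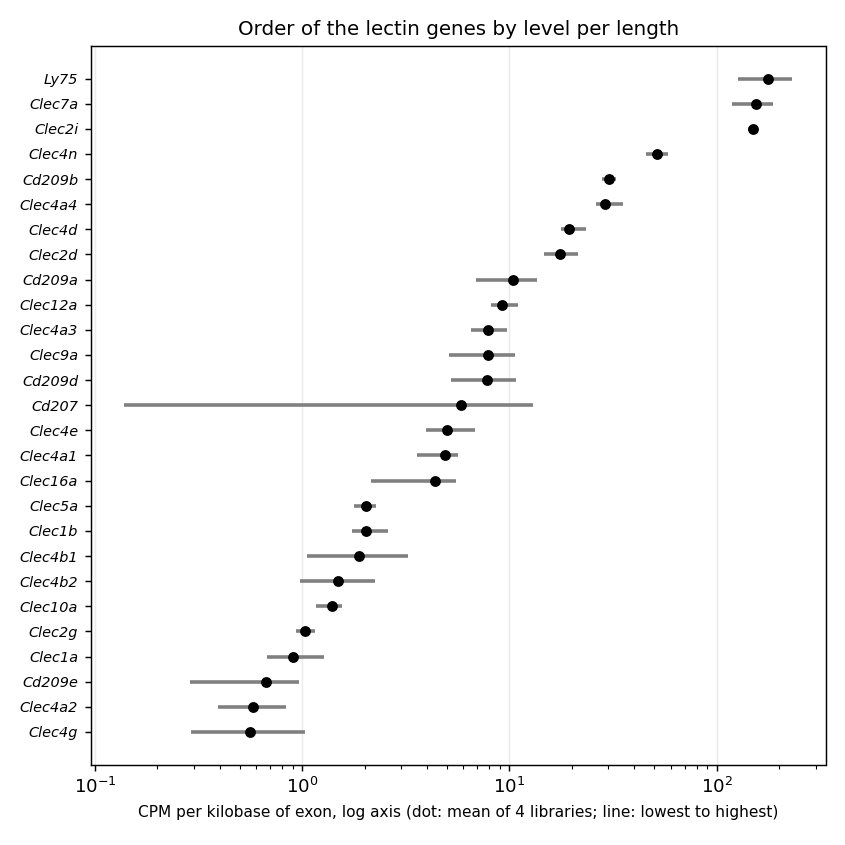
Level per length of the 27 expressed lectin genes, as CPM per kilobase of exon on a log axis. Dots are means of the 4 libraries and lines run from the lowest to the highest library. Ly75, Clec7a and Clec2i lie together at the top, at means of 177, 154 and 150 CPM per kb, and the line of Cd207 is the longest.

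The expressed genes lay largely in 3 genomic neighbourhoods (GRCm38). A stretch of chromosome 6 from 122921848 to 123289870 holds 9 members, the Clec4a, Clec4b, Clec4n, Clec4d and Clec4e genes, and all 9 were expressed, at means of 1.47 to 73.3 CPM. A second stretch from 128652416 to 129472779 holds 13, of which 8 were expressed, Clec2i and Clec7a at the highest levels of these both in CPM and per length. On chromosome 8, from 3707064 to 4137707, lie Clec4g and the 7 Cd209 genes, 5 of the 8 expressed. Neighbours can differ: Cd207 and Clec4f share the stretch from 83644542 to 83677857 of chromosome 6, and Cd207 was read where Clec4f was at 0. Some counts are uncertain because copies or exons are shared. In the annotation 184 exon bases belong to both Clec1b and Clec9a, and 15.7% of the 50-base stretches of Clec4a4, 9.7% of Clec4b1 and 8.9% of Clec4a2 also occur in another gene's transcripts, as do 10.6% of Clec10a. On the opposite strand 249 exon bases of Ly75 overlap Gm13571 and 146 of Clec4g overlap Gm16553, whose reads cannot be told apart if counting ignored strand.

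**Figure D2:**
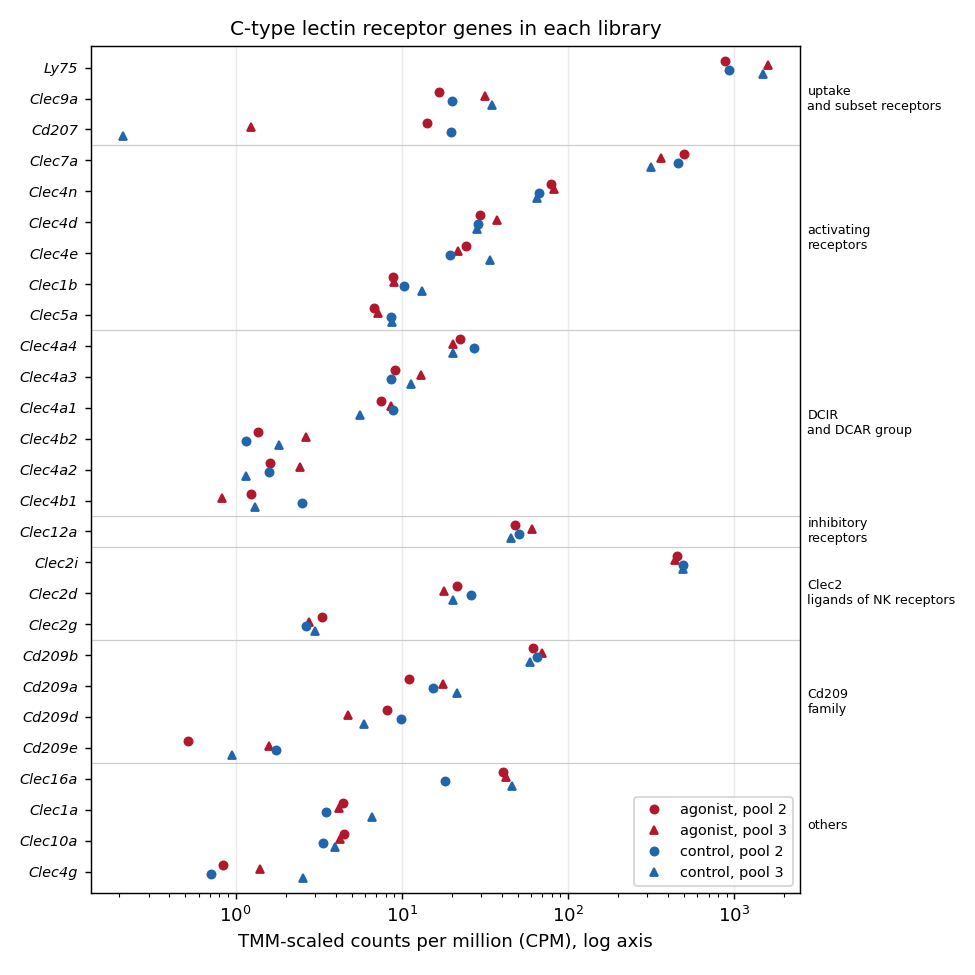
TMM-scaled CPM of each expressed lectin gene in each library on a log axis, grouped by role, with agonist wells in red and control wells in blue, pool 2 as circles and pool 3 as triangles. Wells of the same pool lie together for Ly75, Clec9a and Clec7a, whichever the treatment. For Cd207 both wells of pool 3 lie below those of pool 2 but apart from each other, at 1.23 CPM (agonist) and 0.211 CPM (control).

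The question put by the design is whether 6 h of the Ffar2 agonist changed these genes. No lectin gene passed edgeR's quasi-likelihood test with adjustment over 18297 genes. Of the 42 members 31 passed the filter on low counts and were tested, 0 were called, and 0 had an unadjusted p under 0.05. The lowest unadjusted p was 0.207, and every adjusted p was 0.9999. Among all tested genes 0% were called, and 1.58% had an unadjusted p under 0.05 (0.639% higher, 0.94% lower). DESeq2 and limma-voom also called 0 lectin genes. A block for the pool in edgeR gave 0 called and 0 with an unadjusted p under 0.05, beside 0.00547% and 3.53% of all genes (1.69% higher and 1.84% lower at the unadjusted p). The median log2 fold change of the 31 genes was -0.14, with -0.08 in pool 2 and 0.00 in pool 3, beside a median of -0.05 over all tested genes. The blocked median was 0.01, beside -0.05 over all genes.

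Within same-numbered wells both directions occurred. Of the 31 tested, 9 were higher with the agonist in both pools (21% of all tested genes were), 10 were lower in both (27.9%) and 12 moved in opposite directions (50.7%). In 4 genes both agonist libraries lay above both control libraries (11.4% of all genes), namely Clec4n, Clec4d, Clec10a and Clec4a2. In 6 genes both lay below (13.5%), namely Clec2i, Clec1b, Clec5a, Clec4b1, Clec2f and Cd209c. The other 21 overlapped.

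How large a change could have been missed differs with the level. For 8 of the 27 expressed genes the 95% interval of the agonist effect lay inside a 2-fold change either way, and with the pool as a block this held for 12. All 8 were among the 15 genes with a mean of at least 10 CPM, whose fitted log2 values ran from -0.41 to 0.36. In the genes at 1 to 10 CPM the intervals reached past 2-fold in at least one direction.

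**Figure D3:**
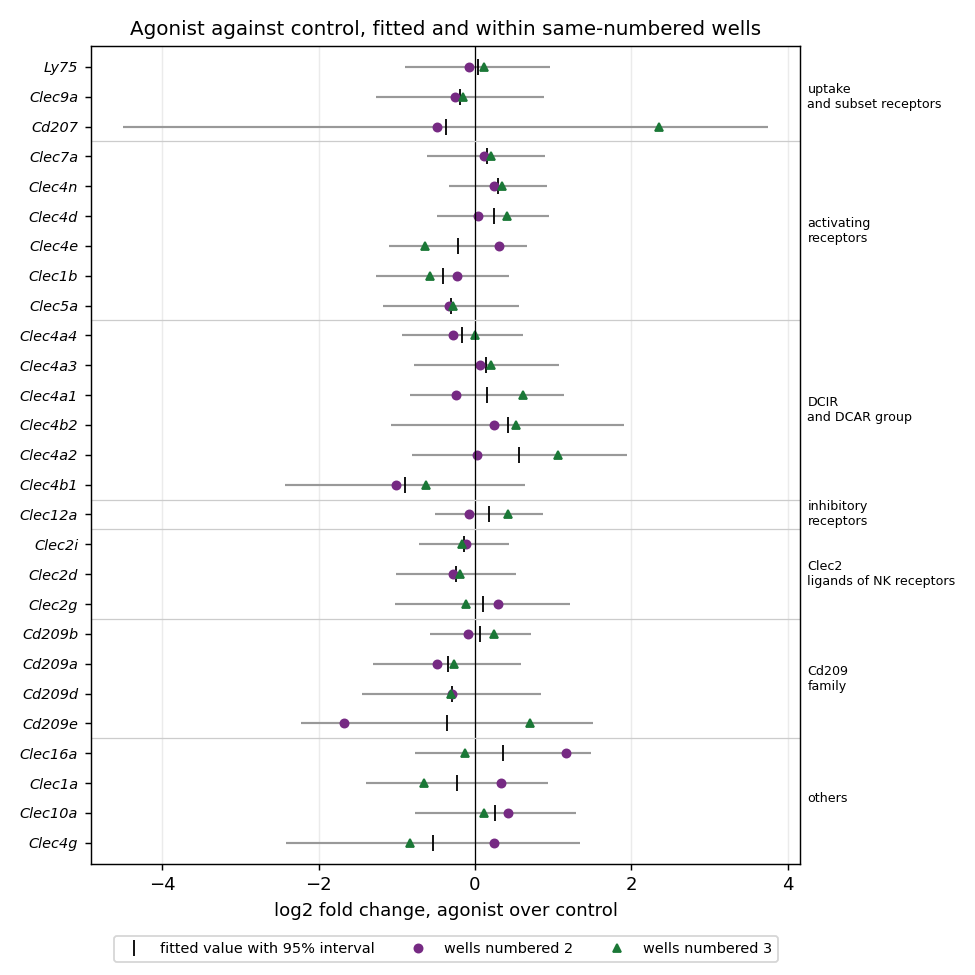
Log2 fold change of agonist over control for the 27 expressed lectin genes. Black ticks are values fitted over both pools with 95% intervals as grey lines, circles are the wells numbered 2 and triangles the wells numbered 3. All intervals cross 0, and Cd207 has its 2 wells on opposite sides, at -0.48 and 2.35.

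Among the uptake and subset receptors, Ly75 differed less between treatments than between pools. It had 880 and 1597 CPM in the agonist wells and 931 and 1482 CPM in the control wells of pools 2 and 3, which is 1238 ± 508 and 1206 ± 390 CPM (SD, n = 2 each). The wells of pool 3 were high whatever the treatment, so the groups overlapped. The fitted agonist effect was 0.04 on the log2 scale (SE 0.38, 95% interval -0.89 to 0.96), and 0.01 (95% interval -0.51 to 0.54) in the blocked fit. Clec9a encodes DNGR-1, which binds actin filaments exposed by dead cells, and marks cDC1. It had 16.8 and 31.5 CPM in the agonist and 20.1 and 35.0 CPM in the control wells, again with pool 3 high in both conditions. Its fitted log2 value was -0.19 (SE 0.44, 95% interval from -1.27 to 0.88), with -0.26 in pool 2 and -0.15 in pool 3. In the blocked fit it was -0.21 (SE 0.28, 95% interval from -0.84 to 0.43).

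Cd207 encodes langerin, a mannose-binding receptor known from Langerhans cells and some other dendritic cells. It had 738 and 70 reads in the agonist wells and 861 and 11 reads in the control wells of pools 2 and 3, or 14.2 and 1.23 CPM against 19.8 and 0.211 CPM. The agonist well was the lower one in pool 2 and the higher one in pool 3. Counting error alone leaves the ratio of agonist to control at 0.717 (95% exact binomial interval 0.649 to 0.792) in pool 2 and at 5.86 (3.08 to 12.3) in pool 3, and such an interval does not cover differences between wells. The fitted log2 value was -0.37 (SE 1.70) and turned to 0.74 (SE 0.64) with the pool as a block, so no direction can be given. Whether the effect differs between the pools was not tested, since each pool has 1 well per condition.

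Among the activating receptors, which signal through Syk, Clec7a had 495 and 362 CPM in the agonist and 458 and 315 CPM in the control wells. Here pool 2 was the high one in both conditions, and the fitted log2 value was 0.15 (SE 0.31, 95% interval from -0.61 to 0.90). Clec4n encodes Dectin-2, a receptor for mannans that pairs with the Fc receptor gamma chain, and had 79.1 and 82.4 CPM in the agonist against 66.5 and 65.1 CPM in the control wells. Its groups did not overlap, but a log2 value of 0.29 (SE 0.26, 95% interval from -0.33 to 0.92) did not pass edgeR's test (unadjusted p = 0.294, adjusted p = 0.9999). Clec4d, which encodes MCL, lies beside Clec4n on chromosome 6 and likewise had higher values in both agonist wells, 29.7 and 37.5 CPM against 28.9 and 28.2 CPM, with a log2 fold change of 0.24 (SE 0.29). Clec4e encodes Mincle, a receptor for mycobacterial cord factor, and its wells went opposite ways. It had 24.2 and 21.9 CPM in the agonist and 19.6 and 34.0 CPM in the control wells, a log2 fold change of 0.31 in pool 2 and -0.64 in pool 3. Clec5a, a receptor that pairs with the adaptor Tyrobp, had 6.85 and 7.18 CPM in the agonist and 8.61 and 8.75 CPM in the control wells (log2 fold change -0.31, SE 0.36). Clec1b, the podoplanin receptor best known from platelets, had 8.85 and 8.92 CPM in the agonist against 10.4 and 13.2 CPM in the control wells (-0.41, SE 0.35). The wells did not overlap in either gene. Of 5 platelet markers 4 were tested, 0 were called and Gp1bb was at 0 in every library. Their summed level was 13.0 and 33.3 CPM in the agonist and 4.53 and 21.2 CPM in the control wells, most of it Ppbp, with 9.73 and 29.1 CPM in the agonist and 2.85 and 19.2 CPM in the control wells. The part of platelets in the Clec1b values was not tested.

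The DCIR and DCAR genes are a family of paired inhibitory and activating receptors. All 6 were expressed and none passed the test. Clec4a4 encodes DCIR2 and was the highest of them, with 22.4 and 20.2 CPM in the agonist and 27.3 and 20.2 CPM in the control wells, overlapping between the groups (log2 fold change -0.16, SE 0.32). Clec4a3 had 9.10 and 13.0 CPM in the agonist and 8.64 and 11.3 CPM in the control wells, and Clec4a1 had 7.46 and 8.57 against 8.80 and 5.61 CPM. Both overlapped between the groups, with log2 fold changes of 0.14 (SE 0.38) and 0.15 (SE 0.41). The low members varied more: Clec4a2, which encodes the inhibitory receptor DCIR, had 1.62 and 2.43 CPM in the agonist against 1.58 and 1.15 CPM in the control wells (0.57, SE 0.57). Clec4b1 had 1.23 and 0.829 against 2.53 and 1.30 CPM (-0.89, SE 0.63) and Clec4b2 had 1.37 and 2.65 against 1.15 and 1.84 CPM (0.42, SE 0.62). Clec12a, an inhibitory receptor that senses uric acid crystals, had 47.6 and 60.6 CPM in the agonist and 50.4 and 45.2 CPM in the control wells (0.18, SE 0.28).

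The Clec2 genes encode ligands of NKR-P1 receptors. Clec2i had the steadiest values of the abundant lectin genes, with 451 and 439 CPM in the agonist and 488 and 489 CPM in the control wells. The agonist wells were the lower ones in both pools, but a log2 value of -0.14 (SE 0.24, 95% interval from -0.71 to 0.44) did not pass edgeR's test (unadjusted p = 0.589, adjusted p = 0.9999). Clec2d encodes Clr-b, a ligand by which many blood cells restrain natural killer cells, and had 21.4 and 17.9 CPM in the agonist against 26.0 and 20.4 CPM in the control wells (-0.24, SE 0.32). Clec2g was at 2.66 to 3.29 CPM in all libraries (0.10, SE 0.46). Markers of lymphocytes had lower values with the agonist, all 11 T cell markers and 8 of 10 B cell markers in both pools (27.9% of all tested genes). So did 6 of 9 natural killer cell markers and 7 of 10 markers of plasmacytoid dendritic cells. Of the T and B cell markers 0 passed edgeR's adjusted test. With the pool as a block, 6 of the 11 T cell and 0 of the 10 B cell markers had an unadjusted p under 0.05 (3.53% of all genes). The summed T cell level was 654 and 309 CPM in the agonist and 935 and 471 CPM in the control wells, and the summed B cell level 1721 and 953 against 1909 and 1179 CPM. Their part in the values of the Clec2 genes was not tested. In such bulk samples fewer cells of a type and less RNA per cell cannot be told apart.

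In the Cd209 family, whose members are the mouse relatives of human DC-SIGN, 4 of 7 genes were expressed. Cd209b encodes SIGN-R1, a receptor of macrophages in the spleen's marginal zone and in lymph node medulla, and was the highest, with 61.5 and 69.5 CPM in the agonist and 65.5 and 58.9 CPM in the control wells. The groups overlapped (log2 fold change 0.07, SE 0.27). Cd209a had 10.98 and 17.8 CPM in the agonist and 15.3 and 21.5 CPM in the control wells, lower with the agonist in both pools (-0.35, SE 0.39, unadjusted p = 0.397, edgeR adjusted p = 0.9999). Cd209d had 8.14 and 4.78 against 9.92 and 5.90 CPM, also lower in both pools (-0.29, SE 0.47), and Cd209e 0.519 and 1.59 against 1.75 and 0.957 CPM, in opposite directions. Macrophage markers were present in every library: 15 of 16 were tested, among them Marco with 42.4 and 54.5 CPM in the agonist and 58.2 and 42.8 CPM in the control wells, and Vsig4 was at 0 in 2 libraries.

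The remaining expressed genes have other roles. Clec16a, which encodes a protein of endosomes and autophagy and not a sugar-binding receptor, had 40.6 and 42.2 CPM in the agonist and 18.1 and 46.3 CPM in the control wells. The pool 2 control stood apart, and the log2 fold change of 0.36 (SE 0.47) was -0.16 without it. Clec10a, a receptor for galactose-type sugars, had 4.52 and 4.27 CPM in the agonist and 3.38 and 3.96 CPM in the control wells (0.26, SE 0.42), and Clec1a, a receptor for fungal melanin, 4.44 and 4.20 against 3.51 and 6.61 CPM (-0.23, SE 0.48). Clec4g, known from sinusoidal endothelium, had 0.846 and 1.41 against 0.712 and 2.55 CPM (-0.53, SE 0.78). Of 12 endothelial and stromal markers 6 were tested, and Emcn and Tek were at 0 in every library. The 15 lectin genes under 1 CPM held 103 and 153 reads in all in the agonist wells and 120 and 204 in the control wells. Among them 4 had reads in a single library each.

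In some lectin genes the wells of a pool lay together whatever the treatment. Comparing pool 3 with pool 2 sets 2 wells of 1 pool against 2 of the other, so the p-values speak of wells only and not of pools or mice, and pool and sex cannot be told apart. With treatment as a covariate 1 of 31 lectin genes was called in edgeR (0 higher and 1 lower in pool 3), against 0.394% of all tested genes (0.104% higher, 0.29% lower). An unadjusted p under 0.05 was found for 3 of 31 (13.9% of all genes), of which 2 were higher in pool 3 (6.15%) and 1 lower (7.71%). The libraries of pool 3 lay wholly above those of pool 2 in 9 genes (24% of all genes) and wholly below in 5 (25.2%).

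**Figure D4:**
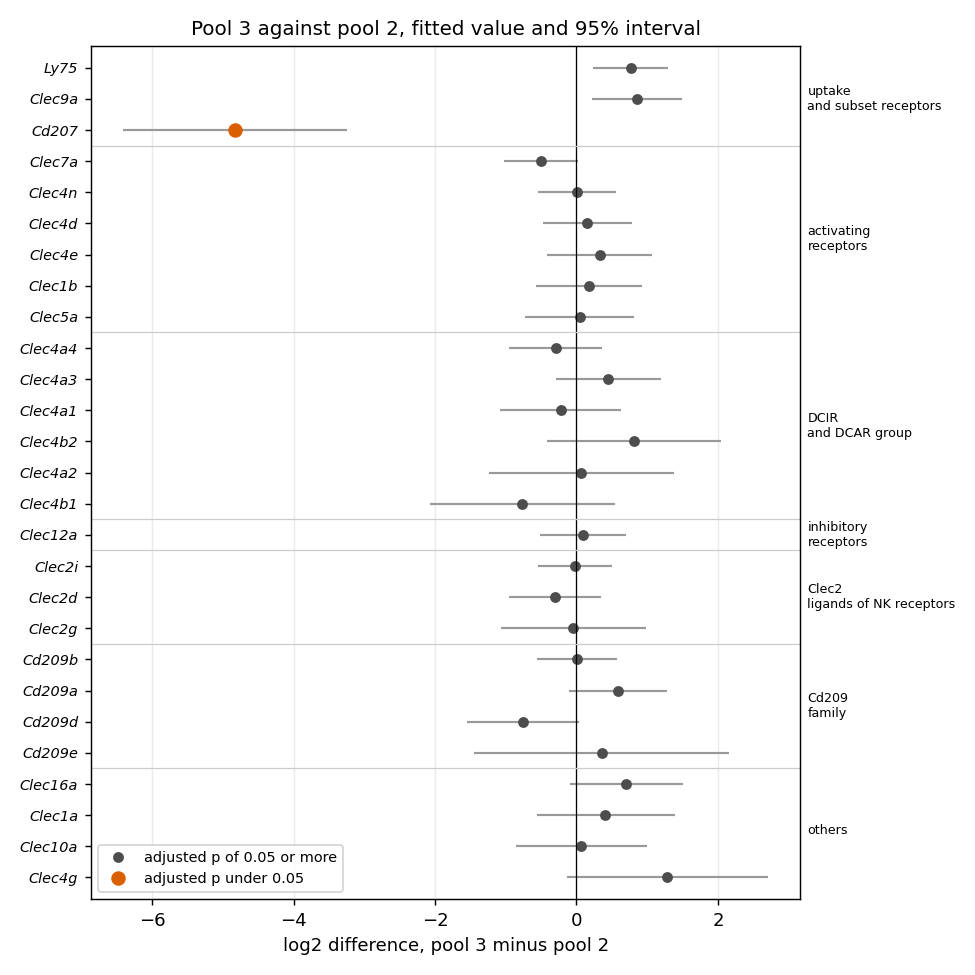
Log2 difference of pool 3 minus pool 2 for the 27 expressed lectin genes, with 95% intervals as lines. Cd207, at -4.83, is the one gene with an adjusted p under 0.05, and the intervals of Ly75 and Clec9a lie above 0.

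The called gene was Cd207. It averaged 0.722 CPM in pool 3 and 17.0 CPM in pool 2, and was 11.5-fold higher in pool 2 than in pool 3 among the agonist wells and 93.9-fold among the control wells. The log2 difference of pool 3 minus pool 2 was -4.83 (SE 0.70, 95% interval -6.41 to -3.25, edgeR adjusted p = 0.0327). The call was lost with total counts as the only scaling (adjusted p = 0.193), with a stricter filter (0.0853) and with pool as the only term (0.132), also when the control well of pool 2 (0.0523) or of pool 3 (0.513) was then left out. The adjusted p ran from 1.56e-12 to 0.513 over all alternatives, with log2 values of -6.31 to -3.79. Epcam, which Langerhans cells also express, was at 0.462 and 0.688 CPM in the agonist and 0.689 and 1.07 CPM in the control wells of pools 2 and 3, and a part of such cells in the Cd207 values was not tested.

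Ly75 and Clec9a had higher values in pool 3 in both conditions without passing edgeR's adjusted test. Ly75 averaged 1540 CPM in pool 3 and 905 CPM in pool 2, a log2 difference of 0.77 (SE 0.23, unadjusted p = 0.00972, edgeR adjusted p = 0.186). DESeq2 called it (adjusted p = 0.0478), as did edgeR with pool as the only term without the pool 2 control (0.0364) or agonist (0.0479) well, and over all alternatives its adjusted p ran from 0.0364 to 0.728. Clec9a averaged 33.3 CPM in pool 3 and 18.4 CPM in pool 2 (0.86, SE 0.28, unadjusted p = 0.0143, edgeR adjusted p = 0.218). Of 11 cDC1 markers that are not lectins 0 were called between the pools, and 3 had an unadjusted p under 0.05, all higher in pool 3. Their median log2 difference was 0.63, beside -0.01 over all genes, with 9 above 0 and with Itgae at -0.63 and Tlr3 at -0.59. Their summed level was 2844 and 2629 CPM in pool 3 (agonist, control) and 2411 and 2299 CPM in pool 2, most of it Id2, which averaged 2170 CPM in pool 3 and 1846 CPM in pool 2. Xcr1, the chemokine receptor of cDC1, had 94.9 and 54.0 CPM in pool 3 and 28.2 and 31.2 CPM in pool 2. Of 10 markers of migratory mature dendritic cells 0 were called between the pools. In edgeR 3 of them had an unadjusted p under 0.05 and were higher in pool 3 (6.15% of all genes). Likewise 1 was lower (7.71%), and the median log2 difference of the 10 was 0.05. The part of either cell type in the differences of Ly75 and Clec9a was not tested.

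Among the lectin genes with lower values in pool 3 in both conditions, Clec7a averaged 338 CPM in pool 3 and 476 CPM in pool 2 (log2 difference -0.50, SE 0.23, edgeR adjusted p = 0.382), and Cd209d 5.34 and 9.03 CPM (-0.76, SE 0.35, adjusted p = 0.381). Of 15 tested markers of monocytes and macrophages 0 were called between the pools, and 6 had an unadjusted p under 0.05, all lower in pool 3. Of the 15, 11 had a log2 difference below 0, and Fcgr1 (0.61), Mpeg1 (0.51), Adgre1 (0.30) and Ccr2 (0.16) were higher in pool 3. Their median log2 difference was -0.55, beside -0.01 over all genes, and their summed level was 3834 and 3692 CPM in pool 3 (agonist, control) and 5499 and 6186 CPM in pool 2, most of it Lyz2, which averaged 2700 CPM in pool 3 and 4470 CPM in pool 2. The median was -1.12 for 11 T cell markers (0 called) and -0.82 for 10 markers of plasmacytoid dendritic cells (1 called, lower). The part of these cells in the lectin values was not tested. Cd209b had a log2 difference of 0.01 (SE 0.25). Cd209a had higher values in pool 3 (0.59, SE 0.30, adjusted p = 0.435), as were Clec4a3 (0.45, SE 0.33), Clec4b2 (0.82, SE 0.54), Clec4g (1.28, SE 0.63) and Clec16a (0.70, SE 0.35), and Clec4a4 and Clec2d were lower (-0.29 and -0.30, SE 0.29 each). None of these passed the test in the fit with treatment, and Clec16a did with pool as the only term and the pool 2 agonist well left out (log2 difference 1.31, adjusted p = 0.018).

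The genes through which the receptors signal were read in every library. All 30 listed partners were tested, 0 were called for the agonist, and their median log2 fold change was -0.02. Syk had 179 and 101 CPM in the agonist and 162 and 114 CPM in the control wells, and the Fc receptor gamma chain gene Fcer1g 98.1 and 74.6 against 119 and 75.7 CPM. Among the lowest p-values were those of the transcription factor gene Nfatc2 (log2 fold change 0.89, SE 0.46), Card9 (0.65, SE 0.36) and the kinase gene Ikbke (-0.58, SE 0.37), with unadjusted p from 0.0985 to 0.161 and edgeR adjusted p of 0.9999 each. In Nfatc2 and Card9 the pool 2 control was the lowest library. Between the pools 1 partner was called, the B cell adaptor gene Blnk, lower in pool 3 (log2 difference -1.74, edgeR adjusted p = 0.0325). Of 10 B cell markers 1 was called lower in pool 3, and Ms4a1 averaged 56.2 CPM in pool 3 and 55.3 CPM in pool 2. Of 22 genes with a C-type lectin domain outside the symbol rule, 18 were tested and 0 were called for the agonist. Among the lowest p-values were those of the collagen receptor gene Mrc2 (0.84, SE 0.44), Klrg1 (-0.74, SE 0.50) and Klrb1f (-0.46, SE 0.42), each with an edgeR adjusted p of 0.9999.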

How the data were processed

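RNA was amplified with the SMART-seq v4 kit. The authors deposited whole-number read counts per gene, 1 table per library, with no normalization. The submitters' processing notes name the tools STAR 2.7 and HTSeq 0.11.1 and the GRCm38 build. Whether counting used strand was not stated. All 55450 gene rows matched identifier and symbol in GENCODE M21, which gave coordinates and exon lengths. HTSeq summary lines, 29.2% to 33.2% of listed reads, were left out. Reads placed in more than 1 position were not counted, so near-identical genes can be undercounted.

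The main fits used edgeR 4.0.16 (R 4.3.3, beside limma 3.58.1), with filterByExpr at a minimum count of 10 (18297 genes kept), TMM factors of 0.947 to 1.051, the two-sided quasi-likelihood test and Benjamini-Hochberg adjustment over all tested genes at 0.05. The agonist test had group as its only term, so differences between the pools enter its standard errors and intervals. The pool test had pool and group. Standard errors are the size of the log2 value over the root of F. Values within a pool are differences of log2 CPM with a prior count of 2. DESeq2 1.42.0, limma-voom, a block for the pool, other scalings and filters and left-out libraries were alternatives. By the protocol each sample's cells went into both wells. The deviations of same-numbered libraries from the group means correlated (r = 0.288 across 18297 genes). With 2 libraries per group the opposite pairing gives the same r with a minus sign. This r alone therefore cannot settle the pairing. The Xist and Ddx3y reads split the libraries by the same numbers. On this and the protocol the numbers were taken to pair the libraries. The fits were run on simulated counts with 200 changed genes. The simulated agonist comparisons held no difference between the pools beyond library size. They therefore do not show how well the main test finds changes in these data. Intervals and floors from read numbers cover counting error only, since reads without molecular identifiers are not independent molecules, and separate cultures of 2 pools set the spread behind the p-values.

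Every lectin gene with a mean of at least 1 CPM is named. The members, the marker lists, the role groups and the motifs were chosen with earlier results of these data known. Of the signalling and other lectin domain lists, the 4 genes with the smallest p were to be named, of which some are not reported here, and others named from the lists were chosen after their values were seen. Tables were read and drawn with Python 3.11.15, pandas 2.3.3, SciPy 1.17.1 and matplotlib 3.10.9.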

Additional observations from a re-analysis of the deposited data

How the results depend on the processing

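The count of lectin genes called for the agonist was 0 under each of the 12 alternatives, those with a replicate block included. The count of all genes called, 0, was 1 with the block in edgeR, 7 in DESeq2, 6 in DESeq2 with the block, 9 with no filter and 0 to 2 with each library left out. The median lectin log2 value, -0.14, was 0.01 in edgeR with the block, 0.04 in DESeq2 with the block and 0.01 in limma-voom, and ran from -0.15 to 0.17 with each library left out, which unbalances the pools. Outside the left-out libraries 277 of 280 values of the 35 named genes kept their direction. The other 3 were Cd207, at 0.74 and 0.89 with the block in edgeR and DESeq2 and 1.11 in limma-voom. The block changed no call among the lectin genes. With each library left out, 17 genes changed sign in at least one fit, with ranges of -2.98 to 5.18 for Cd207, -0.46 to 0.48 for Ly75, -0.06 to 0.44 for Clec7a, -0.02 to 0.19 for Cd209b, -0.01 to 0.38 for Clec12a, -0.16 to 1.27 for Clec16a, -0.72 to 0.33 for Clec9a, -0.56 to 0.32 for Clec4e, -0.28 to 0.08 for Clec4a4, -0.14 to 0.42 for Clec4a3, -0.06 to 0.51 for Clec4a1, -0.69 to 0.13 for Cd209d, -0.61 to 0.37 for Clec1a, 0.00 to 0.26 for Clec2g, -0.14 to 0.87 for Clec4b2, -1.17 to 0.73 for Clec4g and -1.38 to 0.27 for Cd209e. Between the pools, 1 lectin gene was called, against 2 in DESeq2, 0 with total counts only, 0 with a stricter filter, 0 with pool as the only term and 0 to 3 with each library also left out; these last fits were chosen after seeing the data. The count of all genes called between the pools, 72, was 706 in DESeq2, 275 in limma-voom, 5 with total counts only, 600 with no filter, 8 with a stricter filter, 5 with pool as the only term and 1 to 1575 with each library also left out (1575 without the pool 2 agonist, 841 without the pool 2 control, 10 without the pool 3 agonist and 1 without the pool 3 control). The cause of these shifts was not tested. With treatment in the pool fit, leaving out a library leaves no residual degrees of freedom, so there is no such test. The number of expressed lectin genes was 30 at 0.5 CPM and 22 at 2 CPM, against 27. The agonist intervals passed 2-fold in all 12 expressed genes of 1 to 10 CPM and in 7 of the 15 above, and the part of depth in this was not tested.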
